A study of Mus musculus with 9 samples.

Results

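Endothelial and mural cells, the cells that build the blood vessels of a nerve, were described in sciatic nerve RNA through 36 of their marker genes. The 36 genes were listed by name as endothelial and mural markers, with no threshold on their change, and all of them were found among the 36121 genes of the table. The list holds 24 endothelial genes, of which 18 serve endothelial identity and signalling and 6 serve barrier and transport functions. The other 12 are mural genes, of which 6 mark pericytes and 6 mark smooth muscle.

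The vessels inside a nerve bundle are lined by endothelial cells joined by tight junctions, which with the perineurium form the blood-nerve barrier. Pericytes, wrapped around the capillaries, depend on PDGF signals from the endothelium, and smooth muscle cells surround the arterioles and set their tone. Vascular endothelial growth factor (VEGF), made by the cells of a tissue, acts on the endothelial receptors encoded by Kdr and Flt1 and matches the vessels to the tissue around them.

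RNA-seq was performed on sciatic nerves of 9 C57BL6 mice aged 21 days, with 1 library per mouse, 3 mice per genotype, and 2 females and 1 male in each genotype. The conditional knockout (cKO) mice carried Cnp-Cre and floxed Tardbp, the gene of TDP-43, on both chromosomes. The conditional heterozygote (cHet) mice carried Cnp-Cre and 1 floxed allele, and the control mice carried floxed alleles with no Cre. The authors used Cnp-Cre to target Schwann cells and oligodendrocytes. Their staining that showed TDP-43 kept in other cells of the nerve was of Dhh-Cre mice. Whether the vessel cells of the sequenced nerves kept TDP-43 was not tested. Values are in normalized TPM, a measure per length of transcript that the authors had scaled further from library to library.

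Tardbp stood between 94.2 and 103.5 normalized TPM in the cKO, between 177.2 and 186.2 in the cHet and between 185.2 and 217.2 in the control. The groups follow the sample titles, from which the genotype field differs for cHet mouse ID-2742 and cKO mice ID-2744 and ID-2747. Markers of myelinating Schwann cells, the main cells of the nerve, summed to 76565 to 107008 normalized TPM in the cKO, 94921 to 133917 in the cHet and 101739 to 130755 in the control. Some libraries stood apart in markers of neighbouring tissue. Summed skeletal muscle markers reached 12875 normalized TPM in cKO mouse ID-2748 and 24715 in control mouse ID-2743, against 103.7 to 998.1 in the other 7 libraries. Summed adipocyte markers were 1415 and 1904 in control mice ID-2743 and ID-2754, against 43.7 to 363.1 elsewhere, and summed neuron markers were 1563 in cKO mouse ID-2748, 1415 in cHet mouse ID-2742 and 3645 in control mouse ID-2746, against 90.5 to 323.9 elsewhere. Vessel genes are also expressed by the vessels of muscle and fat, and the part of such tissue in the results below was not tested apart from leaving those libraries out.

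All 36 genes had a mean of at least 1 normalized TPM over the 9 libraries, as the choice of the genes required. The endothelial means ran from 3.17 for Nos3, the endothelial nitric oxide synthase, to 157 for Egfl7, a secreted factor of the vessel wall, with a median of 16.5. The mural means ran from 1.90 for Cnn1, the smooth muscle protein calponin, to 252 for Tagln, the actin-binding transgelin, with a median of 16.7. Cnn1 was high in cHet mouse ID-2742 (10.8) and control mouse ID-2743 (2.55), and its cKO mean was 0.67. Its mean reached 1 only through cHet mouse ID-2742. Cnn1 is counted below among the genes lower in the cKO, and its place in the count against the cHet is no support for a change. Among the defining genes, Pecam1 and Cdh5, the adhesion molecules of endothelial junctions, had means of 24.6 and 16.7. Pdgfrb, the PDGF receptor of pericytes, had a mean of 32.4, and Acta2, smooth muscle actin, of 25.1. Tagln is also made by fibroblasts and other contractile cells, so that its level is not a measure of smooth muscle alone. Ly6c1, with a mean of 156, has near-identical neighbours in its gene family, and its values are uncertain for that reason.

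Proximal promoters are shown for the VEGF receptors Kdr and Flt1, on which the results below turn, and for Tie1, another endothelial receptor gene, which held 3 matches to the motif bound by ETS factors such as ERG. The sequences are from RefSeq on GRCm38.p6, run from 250 bases before to 50 bases after the gene start, and are read 5′ to 3′ along the gene, all 3 on the minus strand. Capitals mark the ETS core, searched as AGGAAG or CGGAAG on both strands. The windows are chr5:147725962-147726261 for Flt1, chr5:75978406-75978705 for Kdr and chr4:118489800-118490099 for Tie1.
Flt1: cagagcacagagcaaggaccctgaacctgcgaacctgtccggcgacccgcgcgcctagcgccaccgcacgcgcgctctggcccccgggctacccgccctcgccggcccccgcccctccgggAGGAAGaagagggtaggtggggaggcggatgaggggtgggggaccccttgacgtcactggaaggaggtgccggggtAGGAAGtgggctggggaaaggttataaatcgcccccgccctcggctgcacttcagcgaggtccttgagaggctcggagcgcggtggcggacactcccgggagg
Kdr: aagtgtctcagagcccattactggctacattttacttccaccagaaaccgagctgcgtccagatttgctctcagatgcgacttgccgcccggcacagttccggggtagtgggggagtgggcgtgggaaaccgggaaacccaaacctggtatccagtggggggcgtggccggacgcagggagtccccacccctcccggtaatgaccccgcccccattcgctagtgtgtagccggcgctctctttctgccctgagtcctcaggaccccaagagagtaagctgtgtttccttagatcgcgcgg
Tie1: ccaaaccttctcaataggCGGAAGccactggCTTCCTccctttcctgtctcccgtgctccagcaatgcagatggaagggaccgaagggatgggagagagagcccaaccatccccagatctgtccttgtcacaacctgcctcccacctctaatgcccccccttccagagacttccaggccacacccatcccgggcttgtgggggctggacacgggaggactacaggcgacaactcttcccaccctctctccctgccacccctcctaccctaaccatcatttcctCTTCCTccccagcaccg

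A promoter was found in the RefSeq table for 23 of the 36 genes, 14 endothelial and 9 mural. The ETS core was present in 10 of the 14 endothelial promoters (71.4%) and in 1 of the 9 mural promoters (11.1%), that of Mylk, against 49.8% of the 27025 genes with a promoter in the table. Flt1 held 2 matches and Kdr held none in these windows. The SOX motif ACAAT or ATTGT was present in 5 of the 14 endothelial and 4 of the 9 mural promoters, against 34.4% of all genes. The CArG box of smooth muscle genes was searched only as CCWWWWWWGG, with W for A or T and no mismatch. An exact match was present in 0 of the 14 and 0 of the 9, against 1.81% of all genes. Boxes that depart from this pattern were not counted, so that the zeros do not show that the promoters lack a CArG box. These are descriptions of the letters in each window and were not tested.

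Most vessel genes were somewhat lower in the cKO nerves than in the others, and none of the differences passed the test across all genes. Against the control, 32 of the 36 genes had a lower mean log2 value in the cKO, where 53.6% of all 15014 genes tested were lower. The median log2 fold change was -0.24 for the endothelial genes and -0.33 for the mural genes, beside -0.02 for all genes. Against the cHet, 31 of the 36 were lower in the cKO, beside 47.5% of all genes, with medians of -0.25 for the endothelial and -0.36 for the mural genes and 0.02 for all genes. Markers of some other cells of the nerve were also lower in the cKO. For myelinating Schwann cells 8 of 10 were (medians of -0.17 against the control and -0.22 against the cHet). For fibroblasts 7 of 10 were against the control and 6 of 10 against the cHet (medians of -0.15 and -0.10). Others were mostly higher. Of 10 macrophage markers 7 were higher in both comparisons (medians of 0.13 and 0.09). Of 7 perineurial markers 5 were higher against the control and 4 against the cHet (medians of 0.50 and 0.055). Of 14 neuron markers 13 were higher in both (medians of 0.40 and 0.36). Whether the vessel lists differ from these lists was not tested. In bulk RNA, fewer cells of a type and less RNA per cell cannot be told apart.

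By limma, at an adjusted p under 0.05, 0 of the 36 genes passed in the cKO against the control, where 1.57% of all genes did, and 0 of the 36 passed in the cKO against the cHet, where 1.71% did. At an unadjusted p under 0.05, 4 genes passed against the control (Tagln higher, and Kdr, Rgs5 and Notch3 lower), or 11.1%, beside 12.9% of all genes. Against the cHet 12 passed, Tagln higher and 11 lower, or 33.3%, beside 14.6% of all genes. With limma's array weights, which give less weight to libraries that deviate, 6 of the 36 passed between cKO and cHet (Kdr, Flt1, Slco1a4, Mfsd2a and Rgs5 lower, Tagln higher), where 848 genes passed in all.

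The count of lower genes against the control rested on a few libraries. Without the 2 libraries rich in skeletal muscle markers 19 of the 36 genes were lower in the cKO than in the control, and without the 2 control libraries rich in adipocyte markers 17 were, with a lone control library left. Without the 3 libraries high in neuron markers 30 were lower. Between cKO and cHet the counts were 27 and 20 of 36 without the libraries high in muscle and neuron markers. The adipocyte set holds control libraries only, so that leaving it out could not change the count of 31 between cKO and cHet. Control mouse ID-2743 had the highest value of all 9 libraries for 15 of the 36 genes and lay above the gene's median for 30, and cKO mouse ID-2748 had the lowest value for 16. Leaving out control mouse ID-2743 alone, 25 of the 36 were lower in the cKO than in the control. For 29 of the 36 genes the log2 fold change against the control moved by over 1.5 times, or turned, when some single library was left out, and for 23 of the 36 that against the cHet did.

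**Figure D1:**
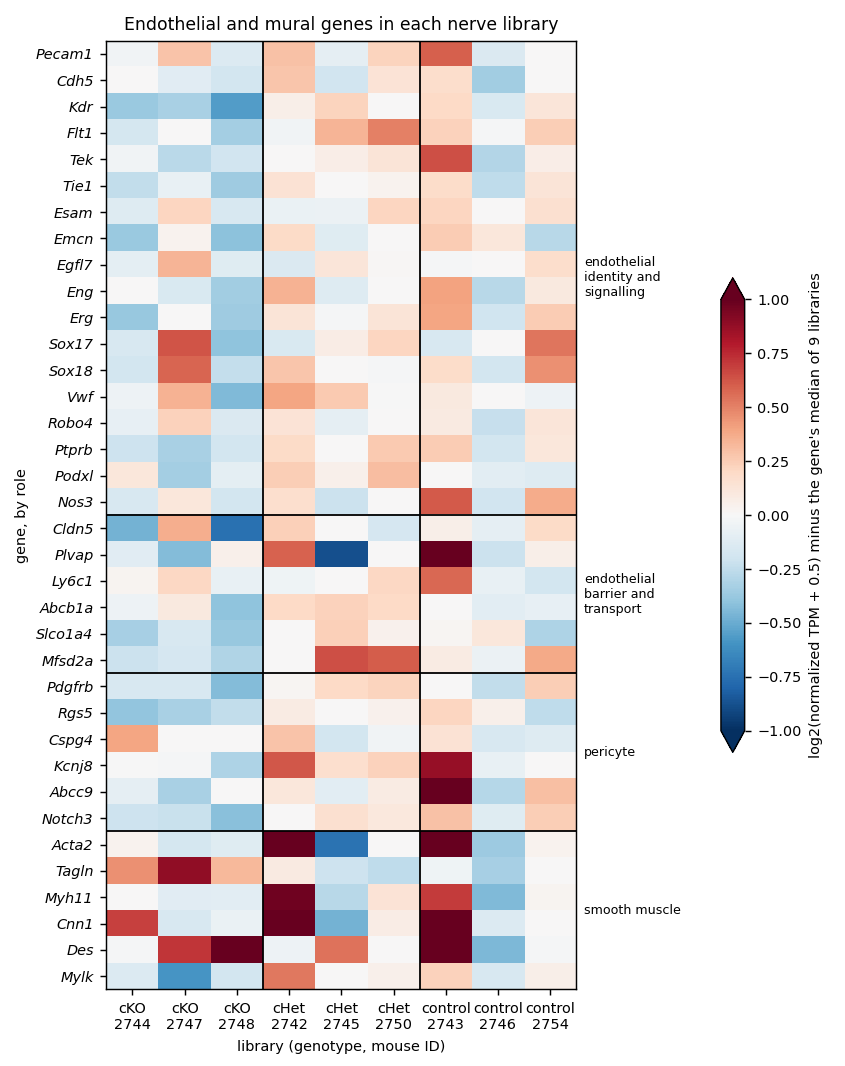
Each cell gives log2(normalized TPM + 0.5) of a gene in a library minus the gene's median over the 9 libraries, with cKO libraries at the left, cHet in the middle and control at the right, and genes grouped by role. Most cells of the cKO columns are blue (below the median), with Tagln red in all 3 of them and several endothelial genes red in cKO mouse ID-2747, while control mouse ID-2743 is red for most genes and control mouse ID-2746 is mostly blue.

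Summed over the 24 endothelial genes, the values were 716.5, 886.9 and 658.1 normalized TPM in the cKO libraries, 820.8, 862.0 and 878.1 in the cHet libraries and 920.7, 753.6 and 840.2 in the control libraries. The groups overlapped, since cKO mouse ID-2747 had the sum of 886.9 and control mouse ID-2746 the sum of 753.6. The 6 pericyte genes summed to 113.3, 108.5 and 105.4 in the cKO, to 136.9, 129.0 and 134.0 in the cHet and to 147.7, 118.5 and 122.9 in the control, with each cKO library below each of the others. Rgs5 and Pdgfrb, at means of 55.3 and 32.4, weighed most in these sums. In the mean of log2 values, which weights the genes alike, control mouse ID-2746 (-0.18 from the median library) lay below cKO mouse ID-2744 (-0.12). Sums of 11 other pericyte genes overlapped, at 218.2 to 258.1 in the cKO, 214.6 to 249.6 in the cHet and 221.5 to 269.2 in the control. The smooth muscle genes ran the other way in the sum, at 356.7 to 459.2 in the cKO, 234.5 to 333.6 in the cHet and 216.8 to 385.2 in the control, and Tagln made up most of it. Pericyte genes were about as even among mice of a genotype as the average gene, with a median within-group SD of 0.20 on the log2 scale against 0.21 for all genes tested and 0.23 for the endothelial genes, and smooth muscle genes were the least even, at 0.60.

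Kdr, the gene of the main VEGF receptor of endothelial cells (VEGFR2), had the lowest adjusted p of the endothelial genes. Its values were 8.93, 9.26 and 7.79 normalized TPM in the cKO, 12.2, 13.8 and 11.7 in the cHet and 13.5, 10.5 and 12.8 in the control. Every cKO library lay below every cHet and every control library. Relative to the control the cKO mean stood at 70.6%, a log2 fold change of -0.48 (SE 0.13, 95% confidence interval -0.78 to -0.18), with an adjusted p of 0.15 from limma, and relative to the cHet at 68.8%, or -0.52 on the log2 scale with an adjusted p of 0.110. Without the 2 control libraries high in adipocyte markers the comparison with the control was left to control mouse ID-2746, the lowest of its group at 10.5. Kdr lies on the minus strand of chromosome 5 from 75932827 to 75978458 (GRCm38).

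Flt1, the gene of VEGFR1, a receptor that binds VEGF tightly and limits its action on VEGFR2, was lower by less. Its values were 7.67, 8.70 and 6.76 in the cKO, 8.48, 11.2 and 12.6 in the cHet and 10.3, 8.62 and 10.4 in the control, so that the groups overlapped. The log2 fold change was -0.33 against the control (adjusted p = 0.476 from limma) and -0.44 against the cHet (adjusted p = 0.271). Ptprb, the phosphatase VE-PTP that restrains the TIE2 receptor, had values of 6.83, 6.26 and 6.94 in the cKO, 9.16, 7.96 and 9.65 in the cHet and 9.56, 6.95 and 8.64 in the control. All cKO values of Ptprb were the lower ones, though cKO mouse ID-2748 and control mouse ID-2746 lay side by side (6.94 against 6.95), with log2 fold changes of -0.30 and -0.39 and adjusted p of 0.441 and 0.255 from limma.

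Of the 18 identity and signalling genes, 17 were lower in the cKO than in the control and 17 were lower than in the cHet, with medians of -0.20 and -0.24 on the log2 scale. The angiopoietin receptor genes Tek (TIE2) and Tie1 had log2 fold changes of -0.30 and -0.24 against the control, and the transcription factor gene Erg, which keeps endothelial identity, had -0.40, none past the test (adjusted p = 0.635, 0.557 and 0.428 from limma). Those of Tek and Tie1 without control mouse ID-2743 were -0.05 and -0.16, and without control mouse ID-2746 they were -0.52 and -0.38. The transcription factor genes Sox17 and Sox18 were nearer to 0, at -0.10 each. Both were highest in cKO mouse ID-2747, at 44.7 and 10.6 normalized TPM, and lowest in cKO mouse ID-2748, at 21.6 and 5.77, so that mice of 1 genotype spanned the whole range. Robo4, a guidance receptor that stabilizes vessels, was the 1 gene of the group above 0 against the control (0.01), and Egfl7 was the 1 above 0 against the cHet (0.04).

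The remaining identity genes had log2 fold changes between -0.34 (Nos3) and -0.01 (Egfl7) against the control. They encode junction proteins (Pecam1, Cdh5, Esam), the surface sialomucins endomucin and podocalyxin (Emcn, Podxl), the TGF-beta co-receptor endoglin (Eng), von Willebrand factor (Vwf), Egfl7 and Nos3. For Cdh5, the gene of VE-cadherin, the cKO values of 17.0, 15.6 and 14.8 lay among the cHet values of 20.6, 14.8 and 18.6 and the control values of 19.1, 13.2 and 16.9. Its 95% confidence interval against the control ran from -0.42 to 0.34, so that a moderate change in either direction was not detectable with 3 mice per genotype. Exons of Egfl7 overlap those of other genes on each strand, and the strandedness of the libraries is not given in the sources used here, so that its values may hold reads of its neighbours. The same limit holds for Eng, Sox17, Nos3, Abcb1a, Notch3, Abcc9, Tagln, Des and Mylk, whose exons overlap those of genes on the other strand.

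**Figure D2:**
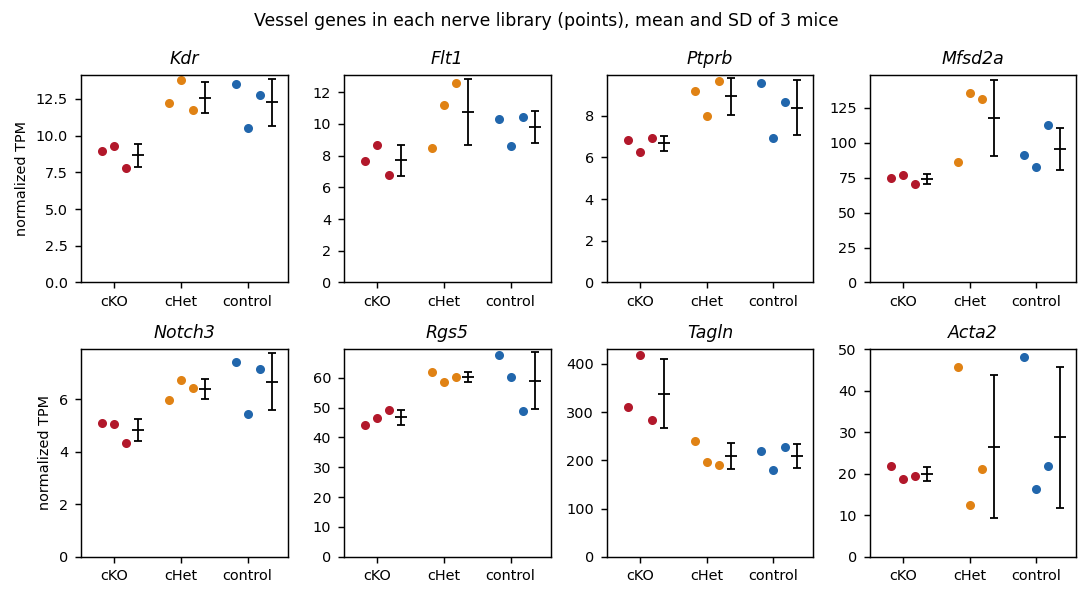
Normalized TPM of 8 vessel genes in each library, with cKO, cHet and control from left to right, points for the 3 mice of a genotype and a bar for their mean and SD. Kdr, Ptprb, Mfsd2a and Notch3 show all cKO points below all others, Tagln shows all cKO points above all others, and Acta2 shows 1 high point each in cHet and control.

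The barrier and transport genes were lower in the cKO than in the control for 6 of 6, at log2 fold changes of -0.48 to -0.05, and lower than in the cHet for 5 of 6. Mfsd2a, the lipid transporter that keeps vesicle transport low in endothelium of the blood-brain barrier, stood at 74.6, 77.1 and 70.3 normalized TPM in the cKO, 86.5, 135.5 and 131.6 in the cHet and 91.6, 82.95 and 112.5 in the control. Every cKO value was below every other value. Mfsd2a was highest in cHet mice ID-2745 and ID-2750 and control mouse ID-2754. These libraries also had the highest sums of myelinating Schwann cell markers (133917, 124953 and 130755). Which cells of the nerve made the Mfsd2a RNA was not tested. Mfsd2a lies on the minus strand of chromosome 4 from 122946850 to 122961188. Relative to the control the cKO mean stood at 77.3% (log2 fold change -0.36, 95% confidence interval -0.77 to 0.06, adjusted p = 0.467 from limma) and relative to the cHet at 62.8% (log2 fold change -0.64, 95% confidence interval -1.05 to -0.23, adjusted p = 0.147). Without cHet mouse ID-2742, the lowest of its group, the difference from the cHet was -0.85 and passed the test (adjusted p = 0.0402 from limma), and over all alternatives this adjusted p ran from 0.0164 to 0.468.

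The efflux pump gene Abcb1a (P-glycoprotein) and the organic anion transporter gene Slco1a4 each had all 3 cKO libraries below all 3 cHet libraries. Slco1a4 stood at 32.4, 36.5 and 31.4 in the cKO, 41.0, 48.4 and 42.1 in the cHet and 41.5, 44.4 and 32.9 in the control, with log2 fold changes of -0.38 against the cHet (adjusted p = 0.216 from limma) and -0.23 against the control (adjusted p = 0.517). Abcb1a was at a log2 fold change of -0.33 against the cHet (adjusted p = 0.281) and at -0.06 against the control. Cldn5, the main claudin of endothelial tight junctions, was uneven within the cKO, at 55.6, 99.6 and 45.9 normalized TPM, with 91.0, 77.2 and 68.8 in the cHet and 80.6, 72.3 and 88.3 in the control. cKO mouse ID-2747 held the highest and cKO mouse ID-2748 the lowest of the 9 values. Plvap, which forms the diaphragms of leaky capillaries and is sparse where a barrier is tight, was at 7.55, 5.93 and 8.52 in the cKO, 12.6, 4.24 and 8.21 in the cHet and 18.2, 7.01 and 8.59 in the control. Its high value was that of control mouse ID-2743, and its log2 fold change against the control, -0.48, was -0.09 without that mouse.

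Of the pericyte genes, 5 of 6 were lower in the cKO than in the control and 5 of 6 were lower than in the cHet, with medians of -0.35 and -0.37 on the log2 scale. Notch3, the Notch receptor of mural cells, stood at 5.09, 5.04 and 4.32 normalized TPM in the cKO, 5.96, 6.73 and 6.44 in the cHet and 7.42, 5.44 and 7.15 in the control. Its cKO values were the 3 lowest of the 9. Notch3 lies on the minus strand of chromosome 17 from 32120820 to 32166852. The log2 fold change was -0.42 against the control (95% confidence interval -0.77 to -0.08, adjusted p = 0.266 from limma) and -0.37 against the cHet (adjusted p = 0.30). Rgs5, a regulator of G protein signalling abundant in pericytes, stood at 44.2, 46.6 and 49.3 in the cKO, 62.0, 58.4 and 60.3 in the cHet and 67.8, 60.4 and 49.0 in the control. For Rgs5 all cKO values lay below all cHet values, and control mouse ID-2754, at 49.0, fell within the cKO range. The log2 fold changes were -0.32 (adjusted p = 0.285 from limma) and -0.36 (adjusted p = 0.203).

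Pdgfrb, which binds the PDGF-B of endothelial cells, had 29.3, 29.3 and 24.2 normalized TPM in the cKO, 33.3, 37.6 and 38.3 in the cHet and 32.8, 27.5 and 39.0 in the control. All cKO values were below the cHet values, at -0.40 on the log2 scale (limma, adjusted p = 0.236), while the control overlapped, at -0.25 (adjusted p = 0.521), which was -0.13 without control mouse ID-2754 and -0.375 without control mouse ID-2746. Kcnj8 and Abcc9 encode the channel and the regulatory subunit of the ATP-sensitive potassium channel of pericytes. Against the control they had log2 fold changes of -0.37 and -0.51, and these were -0.07 and -0.15 without control mouse ID-2743, in which both were highest, at 7.70 and 9.55 normalized TPM. Cspg4, the gene of the proteoglycan NG2, was the 1 pericyte gene above 0, at 0.18 against the control and 0.11 against the cHet (adjusted p = 0.731 and 0.832 from limma). NG2 is also carried by other cells of the nerve.

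Tagln stood apart from the other smooth muscle genes. It had 311, 419 and 284 normalized TPM in the cKO, 241, 197 and 191 in the cHet and 220.2, 180.3 and 227 in the control. Every cKO value lay above every other value, which for the comparison with the control held for 8.85% of all genes and for that with the cHet for 13.3%. Relative to the control the cKO mean stood at 162%, a log2 fold change of 0.68 (SE 0.17, 95% confidence interval 0.30 to 1.06) with an adjusted p of 0.106 from limma, and the difference from the cHet was likewise 0.68, with an adjusted p of 0.101. Tagln lies on the minus strand of chromosome 9 from 45929619 to 45936058 (GRCm38), and its exons overlap those of Pcsk7, a proprotein convertase gene on the other strand. Pcsk7 had 21.7, 37.8 and 30.1 normalized TPM in the cKO, 20.6, 24.5 and 20.4 in the cHet and 20.2, 24.6 and 26.3 in the control, far below Tagln and highest in the same mouse, cKO ID-2747. Whether reads of the 2 genes were mixed was not tested.

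The contractile genes Acta2, Myh11 and Cnn1 followed single libraries rather than genotypes. Acta2 had 21.7, 18.7 and 19.4 normalized TPM in the cKO, 45.7, 12.5 and 21.2 in the cHet and 48.1, 16.4 and 21.8 in the control, so that cHet mouse ID-2742 and control mouse ID-2743 stood above all others. Myh11, the smooth muscle myosin heavy chain, was highest in the same pair, at 10.5 and 8.56, against 3.61 to 5.63 in the other 7 libraries. Cnn1 reached 10.8 in cHet mouse ID-2742 and 2.55 in control mouse ID-2743, against 0.23 to 1.13 elsewhere. For Acta2 the log2 fold change in the cKO against the control was -0.37 with a 95% confidence interval of -1.48 to 0.74, and it was 0.07 without control mouse ID-2743. Between cKO and cHet it was -0.21, and 0.28 without cHet mouse ID-2742. Mylk, the kinase that starts smooth muscle contraction, had all 3 cKO libraries below all 3 cHet libraries, at -0.50 on the log2 scale (limma, adjusted p = 0.271).

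Des, the gene of desmin, is a filament protein of skeletal as well as smooth muscle. It reached 45.7 normalized TPM in cKO mouse ID-2748 and 87.6 in control mouse ID-2743, the 2 libraries high in skeletal muscle markers, against 2.41 to 6.04 in the other 7. In the cKO against the control it had a log2 fold change of 0.08 with a standard error of 1.32, the widest of the 36. Cnn1 and Acta2 did not share the order of the muscle markers, since cHet mouse ID-2742, with the lowest muscle sum of the 9 at 103.7, had the highest Cnn1 and the second highest Acta2.

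**Figure D3:**
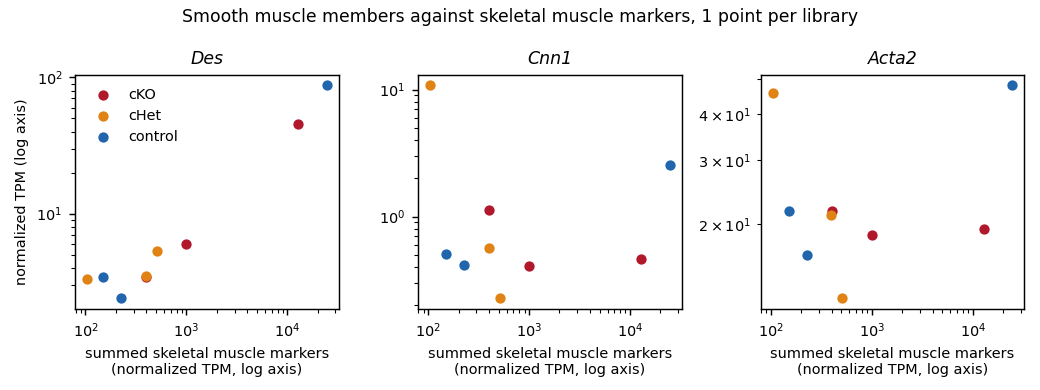
Normalized TPM of Des, Cnn1 and Acta2 in each library (vertical axes) against the summed value of 18 skeletal muscle markers (horizontal axes), all axes logarithmic, 1 point per library coloured by genotype. Des is high in the 2 libraries at the right, with sums of 12875 and 24715, while Cnn1 and Acta2 are also high in the cHet library at the far left.

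Counting genes whose groups did not overlap, 4 of the 36 had all 3 cKO libraries below all 3 control libraries (Kdr, Ptprb, Mfsd2a and Notch3), or 11.1%, where 8.57% of all genes did. Against the cHet 12 of the 36 did (Kdr, Tek, Tie1, Ptprb, Abcb1a, Slco1a4, Mfsd2a, Pdgfrb, Rgs5, Kcnj8, Notch3 and Mylk), or 33.3%, where 11% of all genes did. Kdr, Ptprb, Mfsd2a and Notch3 lay below both other groups, or 4 of the 36, beside 5.69% of all genes with a symbol. The comparisons share the cKO libraries, so that the second is no independent repeat of the first. Of the 12 genes, 7 were endothelial and 5 mural. Without the 3 libraries whose genotype field differs from the title, which leaves 1 cKO library, 33 of the 36 genes were lower in the cKO than in the control and 29 were lower than in the cHet, and 0 genes of all tested passed in either comparison.

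**Figure D4:**
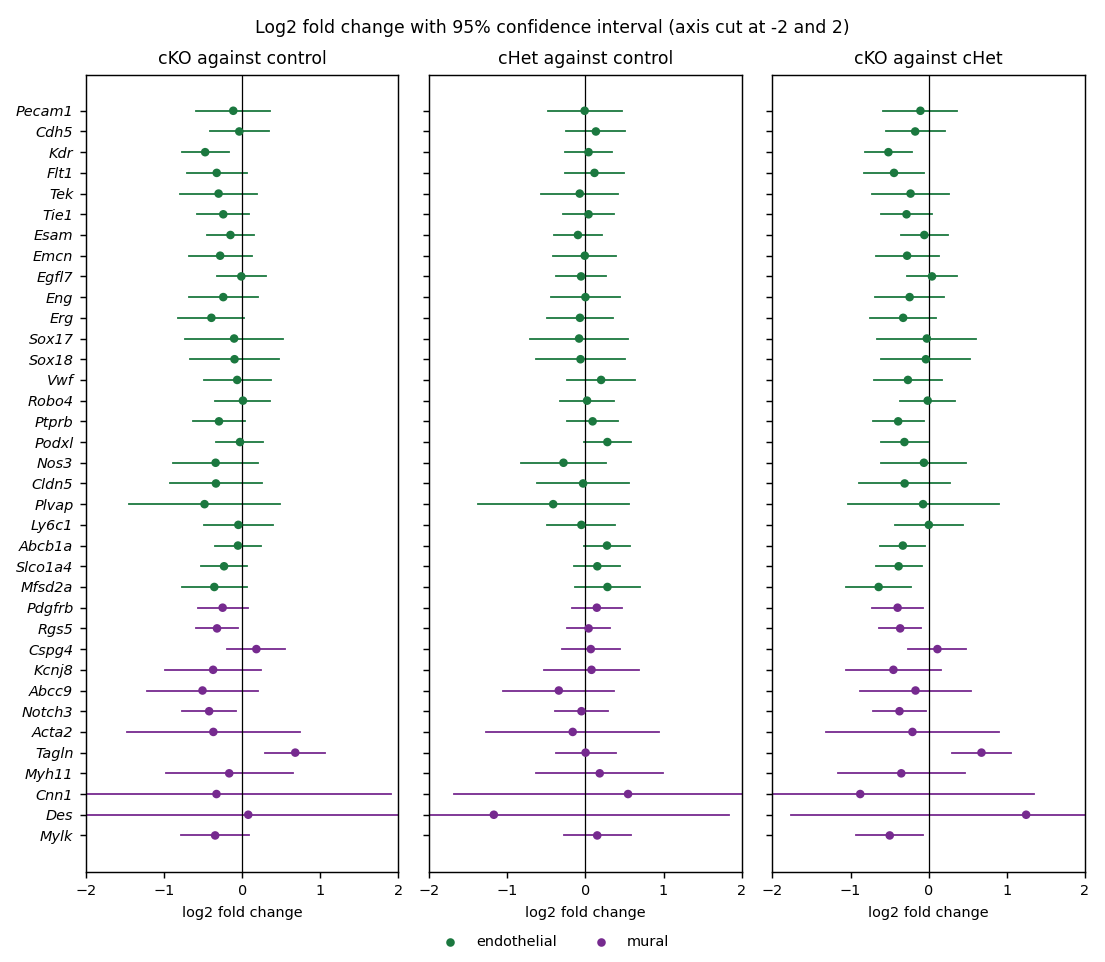
Log2 fold change (points) and 95% confidence interval (lines) of the 36 genes in 3 panels (cKO against control at the left, cHet against control in the middle, cKO against cHet at the right), endothelial genes in green and mural genes in purple. In the left and right panels 32 and 31 of the 36 points lie below 0, and in the middle panel the points scatter around 0. The lines of Cnn1 and Des run past the ends of the axis at -2 and 2.

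The cHet nerves, which carry Cre and 1 unfloxed allele, differed from the control in a direction that changed with the scaling and the libraries. As deposited, 19 of the 36 genes were higher and 17 lower in the cHet, with medians of -0.004 for the endothelial and 0.06 for the mural genes. The number lower was 7 with the libraries rescaled to the same sum and 8 with quantile normalization, 7 without control mouse ID-2743 and 24 without control mouse ID-2746, and 28 without the libraries high in neuron markers. By limma 0 of the 36 passed at an adjusted p under 0.05, where 0% of all genes did, and 0 of the 36 at an unadjusted p under 0.05, where 2.72% did. The barrier pump Abcb1a, at 25.7, 26.2 and 25.7 normalized TPM in the cHet and 22.2, 20.6 and 21.0 in the control, and Podxl, at 19.0, 16.7 and 19.9 in the cHet and 16.02, 14.8 and 14.6 in the control, had all cHet libraries above all control libraries, beside 2.69% of all genes. In 0 of the 36 were all cHet libraries below all control libraries, beside 4.41% of all genes. Without the 2 control libraries high in adipocyte markers all but 4 of the 36 genes were higher in the cHet than in the control mouse that remained, ID-2746.

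Among genes that signal to vessels, the VEGF ligand genes Vegfa and Vegfb were lower in the cKO nerves, with calls that depended on the libraries and the settings. Vegfa, the main VEGF, had 30.6, 30.3 and 33.6 normalized TPM in the cKO, 60.4, 62.1 and 61.5 in the cHet and 93.4, 57.3 and 66.7 in the control. The cKO values lay together, well below all others. In the cKO Vegfa fell to 43.5% of the control, or -1.16 on the log2 scale (SE 0.16, adjusted p = 0.0124 from limma), and to 51.4% of the cHet, or -0.95 (adjusted p = 0.0266). The highest control value was that of mouse ID-2743; without it the call was kept, and without any one of the 3 cKO libraries the adjusted p was 0.0527 to 0.0718, and with a fit to the 2 groups alone it was 0.0747. In the comparison with the cHet it was 0.0771 to 0.121 without any one of the cKO or cHet libraries, 0.0555 with no filter on low values and 0.0509 with sex as a covariate. Leaving out the set of libraries rich in neuron markers, Vegfa had an adjusted p of 0.0768 against the control and 0.145 against the cHet, and leaving out the adipocyte set it had 0.0619 against the control. Vegfa is made by many cells of a nerve, and their parts in its level cannot be told apart in bulk RNA.

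Vegfb, a relative that acts through Flt1, fell to 61.7% of the control mean, with 23.0, 26.4 and 30.7 normalized TPM in the cKO, 32.5, 31.4 and 33.5 in the cHet and 43.2, 37.6 and 49.2 in the control. The cHet values lay between those of the other genotypes. The log2 fold change was -0.69 against the control (SE 0.13, adjusted p = 0.0454 from limma) and -0.29 against the cHet (adjusted p = 0.364). The call against the control was kept without control mouse ID-2746 and lost without any one of the other 8 libraries, where the adjusted p was 0.0597 to 0.156, and it was lost without the libraries high in muscle, neuron or adipocyte markers (adjusted p = 0.138, 0.128 and 0.303). It was also lost with no filter, median of ratios scaling, a fit to the 2 groups alone, no trend or array weights (adjusted p = 0.0562 to 0.166), and held in 7 of the 24 alternatives tried. Of 20 angiogenic ligand genes 18 were tested, of which Vegfa and Vegfb fell, none rose and 16 did not pass against the control, and Vegfa alone passed against the cHet.

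Nrp2, the co-receptor neuropilin 2 of VEGF and class 3 semaphorins, fell to 66.6% of the control mean. It stood at 24.0, 21.1 and 26.9 normalized TPM in the cKO, 38.5, 45.0 and 41.0 in the cHet and 38.2, 34.8 and 35.1 in the control. The cKO values were the 3 lowest, with log2 fold changes of -0.58 (adjusted p = 0.0423 from limma) and -0.78 against the cHet (adjusted p = 0.0138). The call against the control held in 4 of the 24 alternatives. It was lost without any one library (adjusted p = 0.0602 to 0.151) and with no filter, same-sum or median of ratios scaling, a fit to the 2 groups alone, sex as a covariate, no trend or array weights (adjusted p = 0.0537 to 0.136), and that against the cHet was lost without cKO mouse ID-2744, cHet mouse ID-2745 or cHet mouse ID-2750 (adjusted p = 0.0628 to 0.0760). Without the muscle, neuron or adipocyte sets of libraries the adjusted p against the control was 0.141, 0.159 and 0.279, and without the muscle or neuron sets that against the cHet was 0.0584 and 0.115. Nrp2 was the 1 gene that passed of 25 tested vascular receptors and transcription factors outside the 36. Nrp1, the co-receptor more typical of blood endothelium, stood at -0.20 on the log2 scale (adjusted p = 0.768).

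Sema3g, a secreted class 3 semaphorin known from arterial endothelium, moved the other way and by more. It had 76.5, 85.3 and 77.7 normalized TPM in the cKO, 18.5, 22.6 and 26.9 in the cHet and 19.7, 25.7 and 38.9 in the control. No cKO value was near those of the other genotypes. Sema3g rose to 284% of the control, or 1.55 on the log2 scale (SE 0.23, adjusted p = 0.0180 from limma), and to 353% of the cHet, or 1.81 (adjusted p = 0.0107). Against the control the call was lost without any one cKO library or control mouse ID-2746 (adjusted p = 0.0529 to 0.0899) and with a fit to the 2 groups alone (0.0700), and against the cHet without cKO mouse ID-2748 or cHet mouse ID-2745 (adjusted p = 0.0520 and 0.0554). Without the muscle, neuron or adipocyte sets the adjusted p against the control was 0.126, 0.177 and 0.0611, and without the neuron set that against the cHet was 0.155, at log2 fold changes of 1.34 to 1.69. None of the other 19 genes of arterial, venous and capillary endothelium passed, and their list had a median of -0.19 against the control, Sema3g included. Which cells of the nerve made the Sema3g RNA, or that of Nrp2, was not tested.

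**Figure D5:**
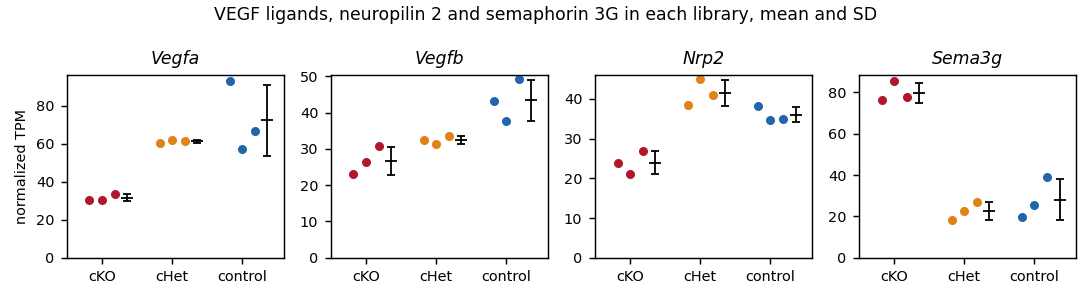
Normalized TPM of Vegfa, Vegfb, Nrp2 and Sema3g in each library, with cKO, cHet and control from left to right, points for mice and a bar for the mean and SD of 3. The cKO points of Vegfa (30.3 to 33.6), Vegfb and Nrp2 lie below all other points, and those of Sema3g (76.5 to 85.3) lie above all other points.

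Other vessel lists held no gene that passed limma at an adjusted p under 0.05. Of 17 tested genes of tight junctions and the blood-nerve barrier outside the 36, which the perineurium and Schwann cells also express, 11 were higher and 6 lower in the cKO than in the control, with a median of 0.07. At an unadjusted p under 0.05, 0 of the 17 passed, beside 12.9% of all genes. Of 11 other pericyte genes 8 were lower, with a median of -0.21, and of 19 other smooth muscle genes and regulators 14 were lower, with a median of -0.21, against -0.02 for all genes. At an unadjusted p under 0.05 there were 1 of the 11 and 2 of the 19, beside the same 12.9% of all genes. Of 4 tested genes of lymphatic endothelium 3 were lower, with 1 at an unadjusted p under 0.05, a level that 12.9% of all genes passed. Red blood cell markers, which follow the blood left in a nerve, summed to 1275 to 8116 normalized TPM in the cKO, 3612 to 6713 in the cHet and 2579 to 4066 in the control, and the lowest and the highest library were both cKO, mice ID-2747 and ID-2748. cKO mouse ID-2747 was also the cKO library with the highest endothelial sum, 886.9, and mouse ID-2748 the one with the lowest, 658.1.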

How the data were processed

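Sciatic nerves of 9 mice, 1 library each, were sequenced by the authors from TruSeq libraries. The deposited table holds a signal in normalized TPM for each gene in each library, and per the labels it was made with kallisto 0.44.0 and sleuth 0.30.0 on GRCm38. Library sums of 934932 to 1158094 show that these are not plain TPM. For this table, the scaling, the annotation release and the strandedness are not stated in the sources read here. TPM keep no depth, so that no counting error can be given. All columns were used.

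The 15014 genes whose mean over the libraries was at least 1 were tested as log2(value + 0.5), which understates the change of low genes. limma 3.58.1 (R 4.3.3) fitted 1 model to all 9 libraries with a mean-variance trend, and p-values were adjusted over all genes tested after Benjamini and Hochberg, with a threshold of 0.05. Every adjusted p is two-sided and from limma, and measures the spread between these mice. The model was checked on simulated data, where it recovered 57% of changes of 1 and 85% of changes of 2 on the log2 scale between cKO and control. Smaller changes, and shifts shared by the genes of a library, were not simulated. Groups were taken from the sample titles. Replicate numbers were given in accession order and pair no samples.

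The 36 genes, the other lists and the rule for named genes (all 36, Tardbp, and genes of other lists past the threshold) were chosen with earlier results of these data known. Nrp1 and Pcsk7 were named after their values were seen. Gene positions and exon overlaps are from GENCODE M21 and promoters from RefSeq. Alternatives were pseudocounts of 0.1 and 1, no filter or a mean of at least 5, 3 other scalings, only the groups compared, sex as a covariate, no trend, array weights, leaving out each library, and leaving out libraries by genotype field or, chosen after seeing the data, by muscle, neuron or adipocyte markers.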

Additional observations from a re-analysis of the deposited data

How the results depend on the processing

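The medians of the lists moved most with the choice of libraries. Between cKO and control the endothelial median, -0.24, was -0.038 without the 2 libraries rich in skeletal muscle markers and 0.01 without those rich in adipocyte markers, and the mural median, -0.33, was 0.21 without the adipocyte set. Leaving out 1 library at a time, the endothelial median ran from -0.28 to -0.10 and the mural median from -0.50 to 0.00, the value of 0.00 being that without control mouse ID-2743. Between cHet and control the endothelial median was 0.26 without the libraries high in adipocyte markers. Between cKO and cHet the endothelial median was -0.031 without the libraries high in neuron markers, and the mural median was -0.07 without cHet mouse ID-2742 and -0.010 without the 3 libraries whose genotype field differs from the title. The number of the 36 genes that passed between cKO and cHet was 6 with array weights and 0 to 1 with 1 library left out (1 without cHet mouse ID-2742).

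Rescaling the libraries to the same sum moved the median of all genes between cKO and cHet to -0.12, and the endothelial and mural medians to -0.40 and -0.49; relative to all genes the lists stayed lower. Over the alternatives, genes of all tested that passed numbered 0 to 238 between cKO and control (235 as reported), 0 to 2 between cHet and control and 0 to 848 between cKO and cHet (256 as reported). Of 24 alternatives, the calls against the control passed in 17 for Vegfa, 7 for Vegfb, 4 for Nrp2 and 15 for Sema3g. Those against the cHet passed in 14 for Vegfa, 18 for Nrp2 and 20 for Sema3g. All kept their direction, but some alternatives cannot change a fold change, so that the direction was fixed in them. Among them are no filter, no trend, the fit to the 2 groups alone and leaving out a library of the third genotype. Besides libraries left out, the filter, the scaling, the 2-group fit, sex, trend and array weights each ended at least 1 of these calls. Depth is unknown, and with 3 mice per genotype the log2 intervals of single genes were wide. No paired analysis was possible because the labels name no litter or set shared by mice of different genotypes, and replicate numbers were given in accession order.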
